A study of Mus musculus with 12 samples.

Results

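The genes described here are 10 epithelial antimicrobial and mucosal defence genes, Reg3b, Reg3g, Lcn2, Nos2, Duox2, Duoxa2, Saa1, Saa3, Pigr and Lypd8, taken by their symbols from the 55471 genes measured by RNA-seq in mouse colonic crypts. Crypts were released with EDTA from C57BL/6J mice, and 1 library was made from each of 12 mice. The CBPWTp53-floxed group (n = 3) carried wild-type CBP and floxed p53 alleles, and served as the control. The CBPAAp53-floxed group (n = 3) carried the same floxed alleles and a knock-in of CBP, the product of Crebbp, in which a pair of phosphorylated serines is replaced by alanines in every cell of the mouse. In the CBPWTp53ΔIEC (n = 3) and CBPAAp53ΔIEC (n = 3) groups, Trp53 was deleted by Cre under the Villin promoter, which is active in intestinal epithelial cells and leaves the gene intact in other cells of the crypt preparation. The floxed groups carried no Cre, so that an effect of Cre itself cannot be told apart from that of the deletion. The study's methods give female mice of 8 weeks as the default.

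The colonic epithelium holds bacteria away from its surface with secreted proteins, reactive oxygen and nitrogen species, and transported antibodies. Reg3b and Reg3g are secreted lectins that bind the bacterial wall, and in the intestine they are known as products of enterocytes and Paneth cells that rise with microbial and IL-22 signals. Nos2 makes nitric oxide, Duox2 with its maturation factor Duoxa2 makes hydrogen peroxide at the apical membrane, Saa1 and Saa3 are serum amyloid A proteins of the acute phase response, Lcn2 binds bacterial siderophores, Pigr carries dimeric IgA into the lumen, and Lypd8 is a membrane-anchored protein of the upper colonic gland that binds flagella.

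The upstream sequences of 3 of the genes are shown because the first pair, Reg3b and Reg3g, varied together from mouse to mouse and Saa1 was the one gene that passed the test across the 12 libraries. They are the bases directly before the RefSeq transcription start in GRCm38.p6, 5′ to 3′ on the strand of the gene, and capitals mark the motifs searched on both strands: TATAAA, the STAT motif TTCNNNGAA, the C/EBP motif TTGCNNAA and the NF-kB motif. The stretches are chr6:78370715-78370884 on the plus strand for Reg3b, chr6:78468875-78469044 on the minus strand for Reg3g and chr7:46742981-46743180 on the minus strand for Saa1. The RefSeq start of Reg3b lies inside the longer GENCODE gene model given further on.
Reg3b: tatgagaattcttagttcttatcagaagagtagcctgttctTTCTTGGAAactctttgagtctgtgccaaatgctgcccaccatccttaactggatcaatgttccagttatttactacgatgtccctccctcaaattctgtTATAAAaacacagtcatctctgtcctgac
Reg3g: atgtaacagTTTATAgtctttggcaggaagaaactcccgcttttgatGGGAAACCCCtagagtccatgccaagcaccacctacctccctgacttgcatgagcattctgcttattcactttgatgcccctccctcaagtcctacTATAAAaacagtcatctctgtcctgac
Saa1: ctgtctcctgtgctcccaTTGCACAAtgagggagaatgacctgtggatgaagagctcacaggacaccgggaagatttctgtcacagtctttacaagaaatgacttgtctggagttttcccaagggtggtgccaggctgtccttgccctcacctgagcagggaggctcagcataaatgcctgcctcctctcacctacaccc
In a global alignment, 118 of 173 columns (68.2%) were identical between the Reg3b and Reg3g stretches. Reg3b and an equal length of the Saa1 stretch nearest its start gave 91 of 185 columns (49.2%) in the same way. Reg3b and Reg3g both held TATAAA, 29 bases before the start in Reg3b and 27 in Reg3g, and Reg3g held it a second time on the other strand 161 bases before the start. Among 32851 promoters of the RefSeq table, each with 250 bases before and 50 after the start, 13.6% held TATAAA, Duoxa2 with it at 30 bases before the start. The STAT motif lay 129 bases before the start of Reg3b and after that of Pigr, and was in 8.3% of all promoters, and the NF-kB motif lay 123 bases before the start of Reg3g and was in 8.46%. The C/EBP motif lay in the Saa1 promoter at 182 bases, in that of Saa3 at 99 bases and in that of Lcn2 at 216 bases before the start, and in 10.8% of all promoters. A p53 motif, a single decamer of its response element, was in 8.36% of all promoters and in none of the 9 genes of the set with an entry in the table. Nos2 had no entry.

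By position in GRCm38 (GENCODE vM21), Reg3b (ENSMUSG00000071356, chr6:78370657-78373466, plus strand) and Reg3g (ENSMUSG00000030017, chr6:78466269-78468872, minus strand) are neighbours 92802 bases apart. Saa3 (ENSMUSG00000040026, chr7:46711998-46715700) and Saa1 (ENSMUSG00000074115, chr7:46740497-46742980) lie 24796 bases apart on the minus strand. Duox2 (ENSMUSG00000068452, chr2:122279247-122298449, minus strand) and Duoxa2 (ENSMUSG00000027225, chr2:122298900-122302885, plus strand) are transcribed away from each other from starts 451 bases apart. The other genes are Lcn2 (ENSMUSG00000026822, chr2:32384633-32388252), Nos2 (ENSMUSG00000020826, chr11:78920787-78960254), Pigr (ENSMUSG00000026417, chr1:130826684-130852249) and Lypd8 (ENSMUSG00000013643, chr11:58379043-58390728). Among the 10 genes, only Duoxa2 overlaps another annotated gene, Duoxa1 on the opposite strand, which had at most 4 reads in any library. Reads of near-identical copies may have been split: 31.5% of the 50-base windows of Saa1 transcripts also occur in another gene, mostly Saa2, and 6.05% of those of Duox2 occur in Duox1. Saa2 had at most 9 reads and Duox1 at most 8 in any library.

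The libraries held from 11177430 to 18029125 reads assigned to genes. Trp53 was at 23.3 to 33.5 TPM, a level scaled to transcript length and library size, in the 6 floxed libraries and at 3.26 to 6.13 TPM in the 6 p53ΔIEC libraries. Colonic epithelial markers were present throughout (8 of 8 genes, summed at 11953 to 17333 TPM), and markers of plasma cells (0.852 to 4.85 TPM summed), lymphocytes (3.29 to 9.29 TPM) and stroma (4.18 to 8.33 TPM) were low. A set of 4 libraries stood apart: small intestine genes (9 measured genes, among them Apoa1, Fabp6 and the Paneth cell defensin Defa24) summed to 1449 TPM in CBPAAp53-floxed replicate 2, 16025 in CBPWTp53ΔIEC replicate 1, 2219 in CBPAAp53ΔIEC replicate 1 and 4391 in CBPAAp53ΔIEC replicate 3, against 56 to 93 TPM in the other 8 libraries. None of these 4 was a CBPWTp53-floxed library. Results are therefore given with all 12 libraries and without these 4, which leaves 3, 2, 2 and 1 libraries in the groups in the order above, with the lone CBPAAp53ΔIEC library assumed to vary like the others. In such bulk samples, fewer cells of a type and less RNA per cell cannot be told apart.

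Lypd8 and Pigr were the most abundant of the 10 transcripts per length, at medians over 12 libraries of 10302 and 4006 TPM, followed by Reg3b (1352 TPM), Saa1 (473 TPM), Reg3g (123 TPM), Duox2 (62.7 TPM), Duoxa2 (33.7 TPM), Saa3 (7.6 TPM), Nos2 (1.35 TPM) and Lcn2 (0 TPM). The ranges over the 12 libraries of neighbours in this order overlapped, except those of Lypd8 and Pigr, Duoxa2 and Saa3, and Nos2 and Lcn2. Of the 14610 genes that passed edgeR's filter on low counts, 9 were of the set, and Lcn2 did not pass. A gene passed the test at an adjusted p under 0.05 (edgeR quasi-likelihood test, Benjamini-Hochberg over all genes tested) where its log2 fold change also exceeded 0.5 in either direction. Across the 12 libraries only Saa1 did so, in CBPWTp53ΔIEC vs. CBPWTp53-floxed (1 of 9 genes, against 3.15% of all genes) and in p53ΔIEC vs. p53-floxed averaged over both CBP genotypes (1 of 9, against 3.5% of all genes). No gene of the set passed in CBPAAp53-floxed vs. CBPWTp53-floxed (0% of all genes passed; 1 of the 9 had an unadjusted p under 0.05, as did 8.04% of all genes), in CBPAAp53ΔIEC vs. CBPAAp53-floxed (0.0274% of all genes; 1 of the 9 at an unadjusted p under 0.05, against 12.6% of all genes), or in CBPAAp53ΔIEC vs. CBPWTp53ΔIEC, the interaction, and the average of both CBP comparisons (0.00684% of all genes in each; 1 of the 9 in each at an unadjusted p under 0.05, against 3.57%, 10.3% and 2.57% of all genes). DESeq2 called no gene of the set in these except Saa1 in CBPAAp53ΔIEC vs. CBPAAp53-floxed.

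**Figure D1:**
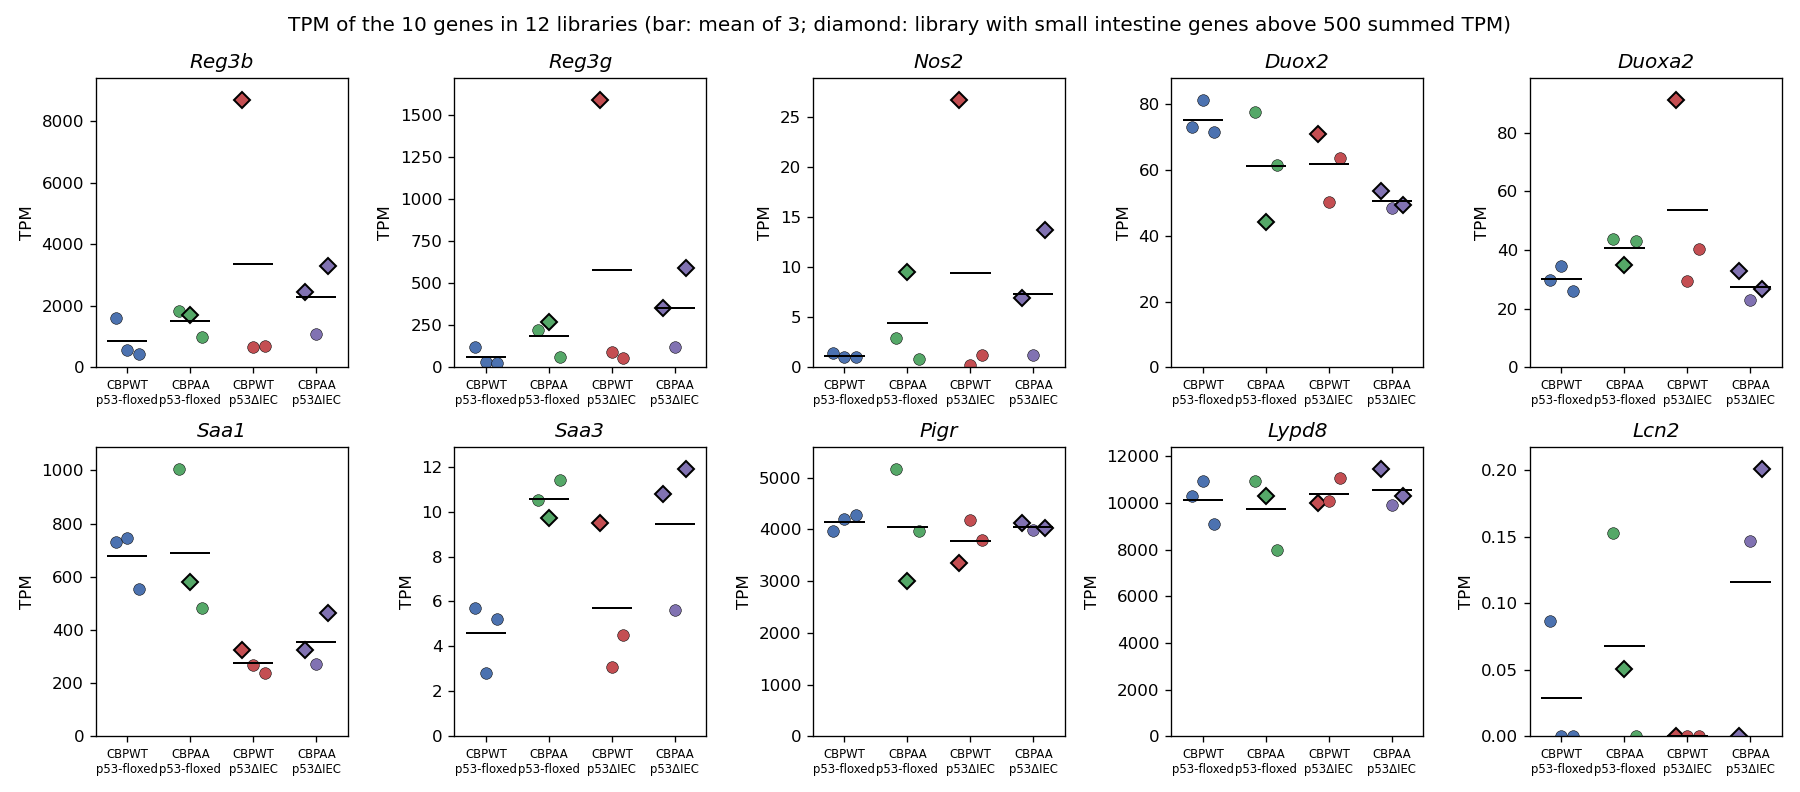
TPM of each of the 10 genes in each of the 12 libraries, with each axis starting at 0, the bar at the mean of 3 mice and diamonds for the 4 libraries rich in small intestine genes. Saa1 sits between 239 and 463 TPM in the 6 p53ΔIEC libraries and between 484 and 1006 TPM in the 6 floxed libraries, while Reg3b, Reg3g and Nos2 have their highest values in CBPWTp53ΔIEC replicate 1.

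Reg3b and Reg3g, the secreted lectins, varied widely between mice of a group, and most in the CBPWTp53ΔIEC group. Reg3b was at 1605, 563 and 425 TPM in the CBPWTp53-floxed mice, 1836, 1693 and 996 in the CBPAAp53-floxed mice, 8689, 670 and 682 in the CBPWTp53ΔIEC mice, and 2434, 1099 and 3288 in the CBPAAp53ΔIEC mice. A single CBPWTp53ΔIEC mouse was far above all others, and the groups overlapped in all 4 pairwise comparisons. Reg3g was at 123, 34.6 and 27.3 TPM, 223, 271 and 64.1 TPM, 1588, 90.5 and 53.2 TPM, and 352, 123 and 589 TPM in the same order of groups and replicates. Its 4 highest libraries, from 271 to 1588 TPM, were those with small intestine genes, and the other 8 reached at most 223 TPM. Reg3b exceeded Reg3g in every library, by a ratio of TPM between 5.47 in CBPWTp53ΔIEC replicate 1 and 16.3 in CBPWTp53-floxed replicate 2.

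The log2 fold change of Reg3b in CBPWTp53ΔIEC vs. CBPWTp53-floxed was 2.19 (SE 1.14, adjusted p = 0.316) with all libraries and -0.46 (SE 0.71, adjusted p = 0.708) without the 4 libraries. That of Reg3g was 3.49 (SE 1.50, adjusted p = 0.233) and 0.17 (SE 0.95, adjusted p = 0.924). CBPWTp53ΔIEC replicate 1 alone set these values, since leaving it out gave -0.46 for Reg3b and 0.15 for Reg3g. In CBPAAp53-floxed vs. CBPWTp53-floxed the log2 fold change was 0.89 (SE 1.10, adjusted p = 0.825) for Reg3b and 1.68 (SE 1.40, adjusted p = 0.735) for Reg3g, and without the 4 libraries 0.78 (SE 0.70) and 1.28 (SE 0.93). In CBPAAp53ΔIEC vs. CBPWTp53ΔIEC both were below 0 with all libraries, at -0.81 (SE 1.10) and -0.96 (SE 1.36), and above 0 without the 4, at 0.76 (SE 0.92) and 0.82 (SE 1.22). None of these passed the test. The pooled SD within groups was 1.37 log2 CPM (reads scaled to library size) for Reg3b and 1.74 for Reg3g, larger than that of 99.3% and 99.6% of all genes tested, whose median was 0.22. The part of the small intestine genes in these levels was not tested.

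Nos2, the inducible nitric oxide synthase, had few reads (6 to 597 per library) and the widest spread of the set. It was at 1.44, 1.07 and 1.01 TPM in CBPWTp53-floxed, 2.9, 9.51 and 0.871 TPM in CBPAAp53-floxed, 26.7, 0.226 and 1.23 TPM in CBPWTp53ΔIEC, and 6.9, 1.26 and 13.7 TPM in CBPAAp53ΔIEC mice. The 4 highest values, from 6.9 TPM upwards, were those of the 4 libraries with small intestine genes, and the other 8 libraries lay between 0.226 and 2.9 TPM. The log2 fold change in CBPWTp53ΔIEC vs. CBPWTp53-floxed was 3.26 (SE 1.73, adjusted p = 0.322), and -0.82 (SE 0.63, adjusted p = 0.414) without the 4 libraries. In CBPAAp53-floxed vs. CBPWTp53-floxed it was 2.08 (SE 1.71, adjusted p = 0.733) and 0.77 (SE 0.55, adjusted p = 0.651). Its SD within groups, 2.11 log2 CPM, was above that of 99.7% of all genes tested. Markers of macrophages, which are also known to make Nos2, summed to 48.4 to 89.3 TPM and had their lowest and highest sums in the CBPAAp53-floxed group, and their part in the result was not tested.

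**Figure D2:**
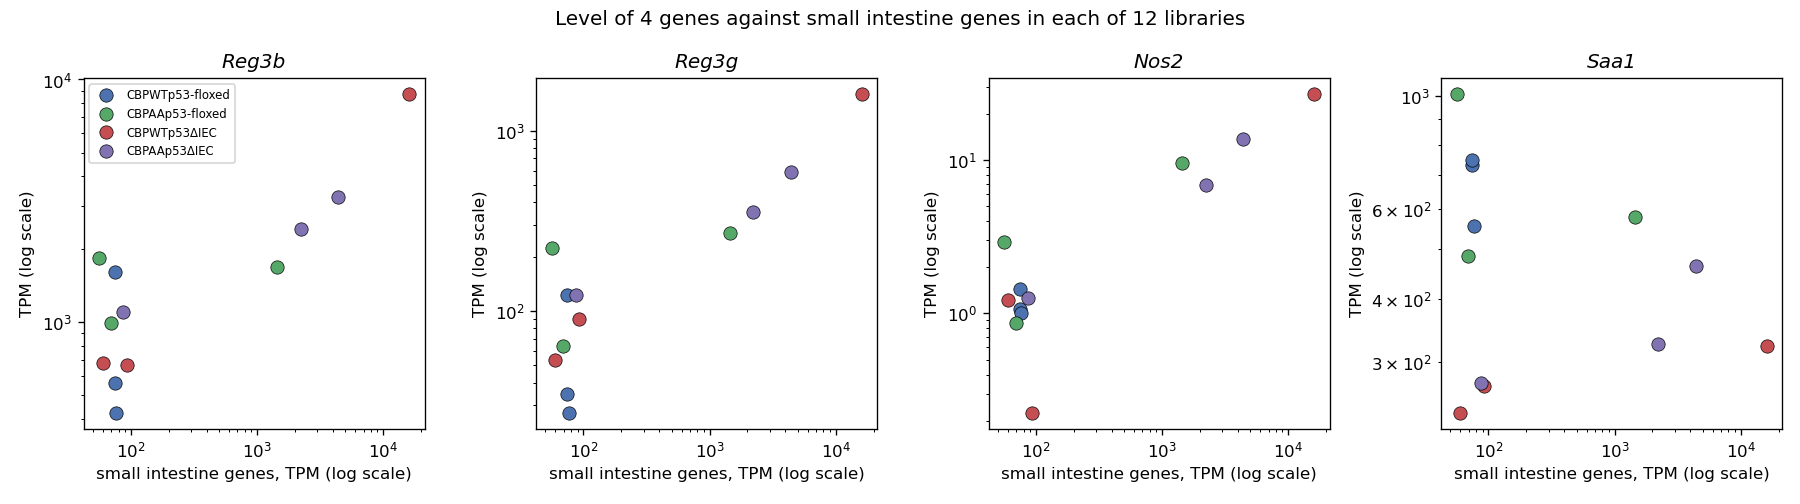
TPM of Reg3b, Reg3g, Nos2 and Saa1 against the summed TPM of 9 small intestine genes in each of the 12 libraries, both on log scales, with colours for the 4 groups. Reg3g and Nos2 are higher in each of the 4 libraries at or above 1449 summed TPM than in any of the 8 libraries at or below 93, whereas Saa1 in those 4 libraries, at 323 to 579 TPM, lies within the range of the other 8.

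Duox2, the apical hydrogen peroxide source, passed the test only when the 4 libraries were left out, and was then lower in the p53ΔIEC crypts. It was at 73.1, 81.4 and 71.5 TPM in CBPWTp53-floxed, 77.8, 44.1 and 61.6 TPM in CBPAAp53-floxed, 71.1, 50.3 and 63.8 TPM in CBPWTp53ΔIEC, and 53.6, 48.6 and 49.4 TPM in CBPAAp53ΔIEC mice. The 3 CBPAAp53ΔIEC values lay close together and below all CBPWTp53-floxed values, and the lowest value of all was that of CBPAAp53-floxed replicate 2, a library with small intestine genes. With 12 libraries the log2 fold change averaged over both CBP genotypes was -0.31 (SE 0.14, adjusted p = 0.223). Without the 4 libraries it was -0.58 (SE 0.08, adjusted p = 7.45e-05), with -0.50 (SE 0.09, adjusted p = 0.00122) in CBPWT and -0.66 (SE 0.13, adjusted p = 0.00515) in CBPAA crypts. The CBPWT value, -0.50 when rounded, lies at the cutoff of 0.5 in size. The CBPAA value, and with it part of the average, rests on 1 CBPAAp53ΔIEC library. With the log2 summed level of small intestine genes as a covariate over all 12 libraries the average was -0.41 (SE 0.16, adjusted p = 0.099), which did not pass. CBPWT and CBPAA crypts then gave -0.33 (SE 0.22, adjusted p = 0.359) and -0.49 (SE 0.21, adjusted p = 0.141), which did not pass either.

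Duoxa2, which brings Duox2 to the membrane, had 1 value far above the rest. It was at 29.8, 34.6 and 26.2 TPM in CBPWTp53-floxed, 43.8, 34.8 and 43.1 TPM in CBPAAp53-floxed, 91.2, 29.5 and 40.2 TPM in CBPWTp53ΔIEC, and 32.8, 23.1 and 26.6 TPM in CBPAAp53ΔIEC mice. The CBPAAp53-floxed mice were all above the CBPWTp53-floxed mice, at the closest by 34.8 against 34.6 TPM, and above the CBPAAp53ΔIEC mice. In these comparisons the CPM of 19.4% and 15% of all genes tested did not overlap. The log2 fold change of CBPAAp53-floxed vs. CBPWTp53-floxed was 0.55 (SE 0.43, adjusted p = 0.717), which did not pass. The 91.2 TPM came from CBPWTp53ΔIEC replicate 1. The log2 fold change of CBPAAp53ΔIEC vs. CBPWTp53ΔIEC was -1.10 (SE 0.43, adjusted p = 0.985), and the difference between the p53 effects in CBPAA and CBPWT crypts (the interaction) was -1.65 (SE 0.61, adjusted p = 0.482). Without CBPWTp53ΔIEC replicate 1 alone these were -0.25 and -0.80. Without the 4 libraries they were -0.52 (SE 0.21, adjusted p = 0.655) and -1.16 (SE 0.26, adjusted p = 0.107), and the fold change of CBPAAp53ΔIEC vs. CBPAAp53-floxed went from -0.70 (SE 0.43, adjusted p = 0.507) to -1.06 (SE 0.21, adjusted p = 0.0061). That last value rests on 1 CBPAAp53ΔIEC library. With the covariate over all 12 libraries the fold change of CBPAAp53ΔIEC vs. CBPAAp53-floxed was -1.08 (SE 0.33, adjusted p = 0.0541), which did not pass. The ratio of Duox2 to Duoxa2 TPM ran from 0.78 in CBPWTp53ΔIEC replicate 1 to 2.73 in CBPWTp53-floxed replicate 3, so that the transcripts of this divergent pair were not kept in 1 proportion.

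Saa1, the main serum amyloid A transcript of these crypts, fell after p53 deletion. It was at 732, 747 and 554 TPM in CBPWTp53-floxed, 1006, 579 and 484 TPM in CBPAAp53-floxed, 323, 270 and 239 TPM in CBPWTp53ΔIEC, and 326, 273 and 463 TPM in CBPAAp53ΔIEC mice. The group means were 678 ± 107 TPM in CBPWTp53-floxed, 277 ± 42.3 TPM in CBPWTp53ΔIEC and 354 ± 97.7 TPM in CBPAAp53ΔIEC mice (SD, n = 3 each), and 689 TPM in the more scattered CBPAAp53-floxed mice. All 6 p53ΔIEC libraries (239 to 463 TPM) lay below all 6 floxed libraries (484 to 1006 TPM), as the CPM of 1.76% of all genes tested also did not overlap between these 6 and 6 libraries. The log2 fold change was -1.22 (SE 0.28, adjusted p = 0.0405) in CBPWT crypts, -1.05 (SE 0.28, adjusted p = 0.32) in CBPAA crypts and -1.14 (SE 0.20, adjusted p = 0.0132) averaged over both. The interaction was 0.16 (SE 0.39, adjusted p = 0.883), and CBPAAp53-floxed vs. CBPWTp53-floxed gave 0.11 (SE 0.28, adjusted p = 0.913). Without the 4 libraries the fall was -1.50 (SE 0.30, adjusted p = 0.0215) in CBPWT and -1.55 (SE 0.41, adjusted p = 0.0919) in CBPAA crypts and -1.53 (SE 0.26, adjusted p = 0.0104) averaged over both. With the covariate it was -1.44 (SE 0.28, adjusted p = 0.0116), -1.27 (SE 0.28, adjusted p = 0.0175) and -1.36 (SE 0.22, adjusted p = 0.00248), so the gene passed in all 3, where 7.98%, 9.53% and 9.78% of all genes did. DESeq2 also called it in CBPAA crypts (adjusted p = 0.0259), as it did 0.615% of genes.

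The averaged fall of Saa1 passed the test without each of the 12 libraries in turn (adjusted p between 0.00171 and 0.0472). The fall in CBPWT crypts alone did not pass with no filter on low counts (adjusted p = 0.108), nor without CBPWTp53-floxed replicate 1 (0.124), 2 (0.144) or 3 (0.154), CBPAAp53-floxed replicate 3 (0.0521), CBPWTp53ΔIEC replicate 2 (0.125) or 3 (0.144), or CBPAAp53ΔIEC replicate 1 (0.0514), while its log2 fold change stayed between -1.50 and -1.04. In CBPAA crypts it passed without CBPAAp53ΔIEC replicate 3 (-1.32, adjusted p = 0.0421). Proliferation genes (8 genes, among them Mki67 and Top2a) summed to 55.1 to 94.8 TPM in the floxed libraries and to 83.2 to 351 TPM in the p53ΔIEC libraries, with 83.2 in CBPAAp53ΔIEC replicate 3, the p53ΔIEC mouse with the highest Saa1. Surface colonocyte genes summed to 9758 to 15056 TPM in the floxed and to 9911 to 12343 TPM in the p53ΔIEC libraries. The part of either in the fall of Saa1 was not tested.

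Saa3, a serum amyloid A protein made outside the liver, was far less abundant than Saa1 in every library. It was at 5.69, 2.81 and 5.23 TPM in CBPWTp53-floxed, 10.5, 9.71 and 11.4 TPM in CBPAAp53-floxed, 9.51, 3.08 and 4.49 TPM in CBPWTp53ΔIEC, and 10.8, 5.61 and 11.9 TPM in CBPAAp53ΔIEC mice, from 48 to 190 reads. All 3 CBPAAp53-floxed mice were above all 3 CBPWTp53-floxed mice, one of 2 genes of the set (Duoxa2 was the other) for which these groups did not overlap, where 19.4% of all genes did not. The log2 fold change was 1.35 (SE 0.47, adjusted p = 0.618) with all libraries and 1.40 (SE 0.26, adjusted p = 0.0366) without the 4, where 0.276% of all genes passed. With the covariate over all 12 libraries it was 1.18 (SE 0.30, adjusted p = 0.286), which did not pass. In CBPAAp53ΔIEC vs. CBPWTp53ΔIEC the log2 fold change with all libraries was 0.62 (SE 0.46, adjusted p = 0.985), and averaged over both p53 states 0.98 (SE 0.33, adjusted p = 1). Of the CBPWTp53ΔIEC and CBPAAp53ΔIEC mice, the 3 with 9.51 TPM or more were those with small intestine genes. Averaged over both CBP genotypes, p53ΔIEC vs. floxed gave 0.07 (SE 0.33, adjusted p = 0.929) with all libraries and -0.74 (SE 0.23, adjusted p = 0.0308) without the 4, so the direction turned. The part of the small intestine genes in this was not tested.

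Across the 12 libraries, the groups of 1 gene of the set, Saa1, did not overlap in CBPWTp53ΔIEC vs. CBPWTp53-floxed (30.8% of all genes), those of Saa1 and Duoxa2 did not in CBPAAp53ΔIEC vs. CBPAAp53-floxed (15%), and those of none did not in CBPAAp53ΔIEC vs. CBPWTp53ΔIEC (9.26%). Without the 4 libraries, 2 of the 9 genes (Duox2 and Saa1) passed the test in CBPWTp53ΔIEC vs. CBPWTp53-floxed, where 11.4% of all genes did, and 2 (Duox2 and Duoxa2) in CBPAAp53ΔIEC vs. CBPAAp53-floxed, where 6.92% did. Averaged over both, the log2 fold changes of Duox2, Saa1 and Saa3 were -0.58, -1.53 and -0.74, lower in the p53ΔIEC crypts. Those of Reg3b, Reg3g, Nos2, Duoxa2, Pigr and Lypd8 were -0.47, -0.06, -0.75, -0.48, -0.24 and -0.05. The CBPAA and averaged values draw on 1 CBPAAp53ΔIEC library. With the covariate over all 12 libraries the averaged values of Duox2, Saa1 and Saa3 were -0.41, -1.36 and -0.48. Of the 9 genes only Saa1 then passed, where 9.78% of all genes did.

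**Figure D3:**
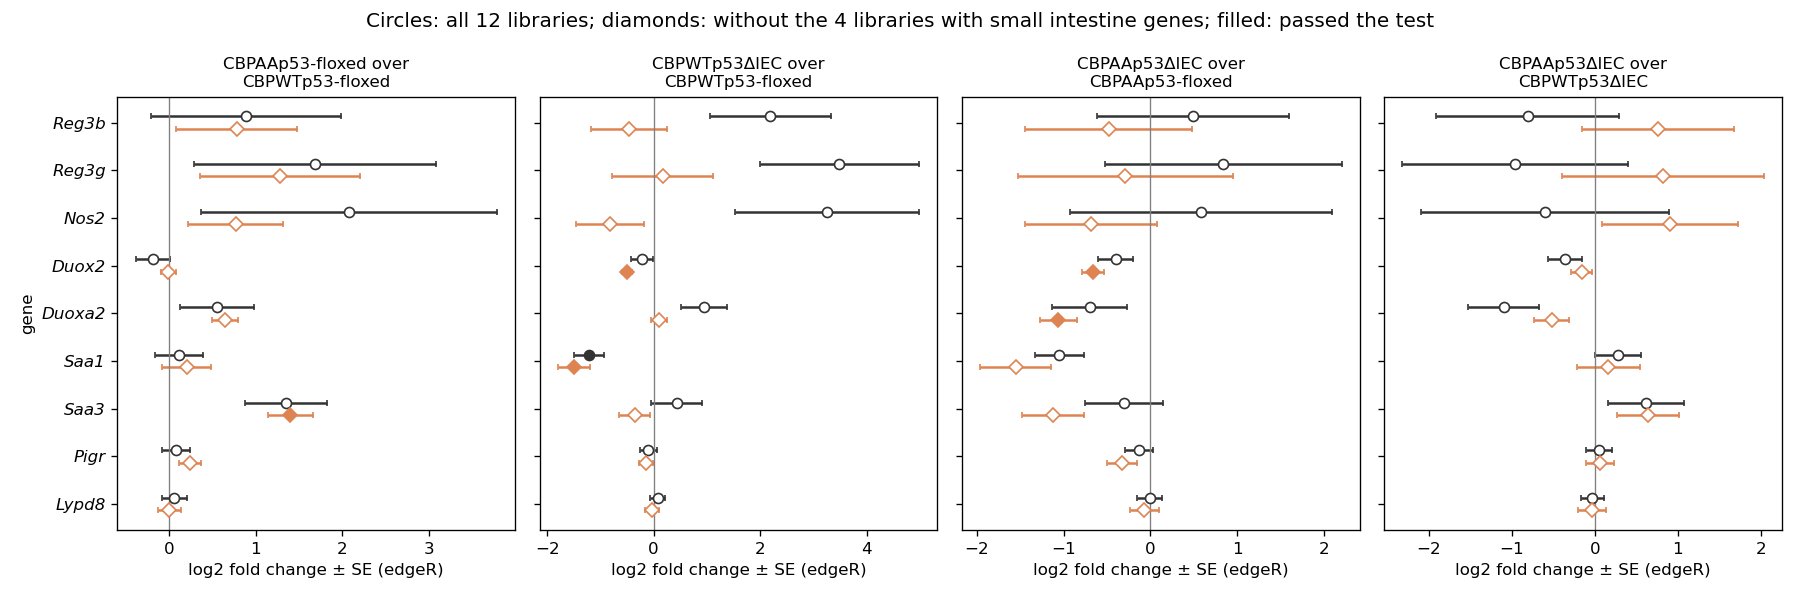
Log2 fold change with its SE (edgeR) of the 9 tested genes in 4 pairwise comparisons, with circles for the fit to 12 libraries and diamonds for the fit without the 4 libraries rich in small intestine genes; filled marks passed the test. Saa1 is the only filled circle, at -1.22 in CBPWTp53ΔIEC over CBPWTp53-floxed, and the values of Reg3b, Reg3g and Nos2 there move from 2.19, 3.49 and 3.26 to -0.46, 0.17 and -0.82.

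Pigr and Lypd8, the antibody transporter and the flagella-binding protein, differed little between groups. Pigr was at 3971, 4201 and 4282 TPM in CBPWTp53-floxed, 5172, 3000 and 3977 TPM in CBPAAp53-floxed, 3360, 4186 and 3790 TPM in CBPWTp53ΔIEC, and 4115, 3984 and 4028 TPM in CBPAAp53ΔIEC mice. Its lowest 2 values, 3000 and 3360 TPM, came from CBPAAp53-floxed replicate 2 and CBPWTp53ΔIEC replicate 1. Lypd8 was at 10312, 10920 and 9113 TPM, 10956, 10297 and 7995 TPM, 10011, 10063 and 11082 TPM, and 11459, 9899 and 10306 TPM in the same order. The groups overlapped in all 4 pairwise comparisons for both genes. Their log2 fold changes in the 4 pairwise comparisons lay between -0.13 and 0.08 for Pigr and between -0.03 and 0.08 for Lypd8, with SEs of 0.16 and 0.14, and none passed the test. Lypd8 had a smaller SD within groups (0.15 log2 CPM) than the median gene.

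Lcn2, the siderophore-binding lipocalin, was listed with 0 reads in 7 of the 12 libraries and with 1 to 3 reads in the others, 9 reads in all. A count of 0 allows up to 3 reads, which is 0.166 CPM in the deepest and 0.268 CPM in the shallowest library, for counting error only. A difference of Lcn2 between groups was not detectable at this depth. Of 11 neutrophil markers, a cell type that is rich in Lcn2, 9 had at most 3 reads in every library and 7 were at 0, S100a9, Mpo and Elane among them. Ly6g was detected at 11.6 to 55.5 TPM, with its lowest value in CBPWTp53ΔIEC replicate 1.

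Among the 36 pairs of the 9 tested genes, the log2 CPM of Reg3b and Reg3g was most alike over the 12 libraries (Pearson's r = 0.97), followed by Reg3b and Nos2 (r = 0.88) and Reg3g and Nos2 (r = 0.87). Over the 8 libraries without high small intestine genes, r was 0.91 for Reg3b and Reg3g, 0.55 for Reg3b and Nos2 and 0.34 for Reg3g and Nos2. Duox2 and Saa1 were more alike over those 8 (r = 0.90) than over 12 (r = 0.57), and Duox2 and Duoxa2 gave 0.57 and 0.60. The libraries fall into groups and differ in depth, and these values are a description.

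**Figure D4:**
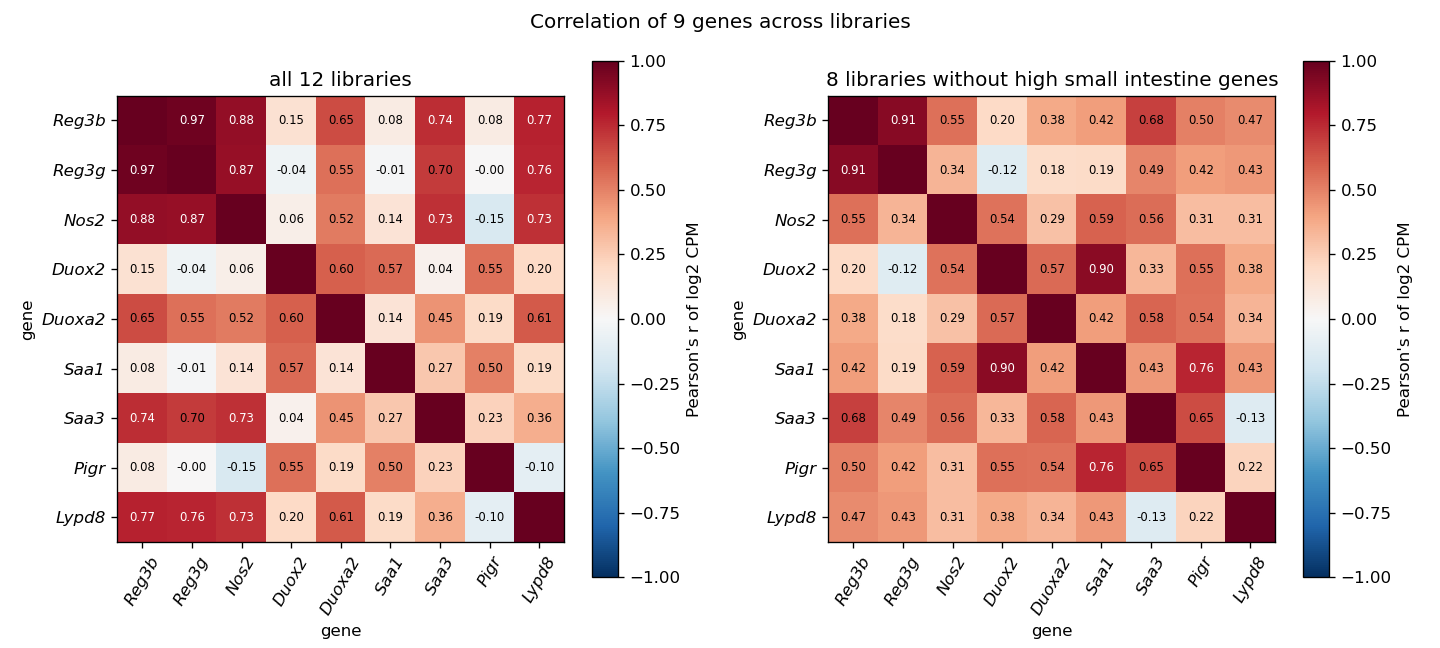
Pearson's r of log2 CPM between each pair of the 9 tested genes, over all 12 libraries (left) and over the 8 libraries without high small intestine genes (right). The block of Reg3b, Reg3g and Nos2, at 0.87 to 0.97 on the left, keeps 0.91 for Reg3b and Reg3g on the right while the pairs with Nos2 drop to 0.55 and 0.34.

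Outside the set, the genes whose log2 CPM was most alike over 12 libraries differed by gene. For Reg3b they were Ankrd13a, Chst8 and B2m (r = 0.923, 0.913 and 0.911), and B2m, the light chain of MHC class I, was higher in each of the 4 libraries with small intestine genes than in the other 8. For Reg3g they were Clca4b, Serpina1b and G6pc1 (r = 0.931, 0.926 and 0.917), with Clca4b running from 2.19 to 201 TPM. For Nos2 they were Cd74, the MHC class II invariant chain, and the transport genes Pdzk1 and Slc7a9 (r = 0.96, 0.951 and 0.948). Chst8, Serpina1b, G6pc1, Pdzk1 and Slc7a9 were also higher in each of the 4 libraries than in the other 8. Saa1 was most like Cyp2d9, a cytochrome P450 (r = 0.984), then Nipsnap2 and Pts (r = 0.95 and 0.933). Duox2 was most like Ceacam20 (r = 0.929), Duoxa2 like the membrane mucin Muc13 (r = 0.935) and Saa3 like 2310033P09Rik (r = 0.928). Pigr was most like Card6 (r = 0.921) and Lypd8 like Gm10366 (r = 0.892). Gm10366, at 0.792 to 2.38 TPM, was also higher in each of the 4 libraries than in the other 8.

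Of 22 further antimicrobial effector genes, 12 were tested and none passed with all 12 libraries in edgeR. In CBPWTp53ΔIEC vs. CBPWTp53-floxed, 9 of the 12 were above 0 and 3 below, with a median log2 fold change of 0.72 against 0.01 over all genes tested. CBPWTp53ΔIEC replicate 1, the library richest in small intestine genes, held 2281 TPM of the lysozyme Lyz1 and 849 TPM of the lectin Itln1, against 7.93 and 0 TPM and 79.9 and 51 TPM in the other mice of its group, and the part of this library in the median was not tested. Lyz1 and Itln1 were chosen here after their values were seen. The lectin Reg3a had 2.66 (SE 0.77, adjusted p = 0.0819) in this comparison, and 2.63 (SE 0.88, adjusted p = 0.233) with no filter on low counts. It was at 1.85 to 3.45 TPM in CBPWTp53-floxed and at 31, 9.11 and 4.26 TPM in CBPWTp53ΔIEC mice, which did not overlap. The CPM of 30.8% of all genes tested did not overlap between these groups either. Without the 4 libraries Reg3a rose by 1.30 (SE 0.43, adjusted p = 0.0428), and DESeq2 called it with all 12 (2.70, SE 0.70, adjusted p = 0.00359). Pla2g2a, a phospholipase gene known from Paneth cells, had 1.59 (SE 0.55, adjusted p = 0.128). It was at 46.6 TPM in CBPWTp53ΔIEC replicate 1 and at 13.1 and 12.8 TPM in the others of its group. In CBPAAp53-floxed vs. CBPWTp53-floxed, 10 were above 0 and 2 below, with a median of 0.46 against 0.01, and Reg4 and Retnlb had the smallest p-values (1.65, SE 0.52, and 1.26, SE 0.68, with adjusted p = 0.618 and 0.644).

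Of 17 genes of oxidant production and removal, 11 were tested. Gpx2, the glutathione peroxidase of the gut epithelium, was the only one that passed with all 12 libraries in edgeR. Gpx2 was at 199, 206 and 168 TPM in CBPWTp53-floxed, 262, 206 and 249 TPM in CBPAAp53-floxed, 313, 369 and 394 TPM in CBPWTp53ΔIEC, and 360, 316 and 198 TPM in CBPAAp53ΔIEC mice. It rose by 0.94 (SE 0.18, adjusted p = 0.0265) in CBPWT crypts after p53 deletion and by 0.54 (SE 0.13, adjusted p = 0.0293) averaged over both genotypes, while in CBPAA crypts its log2 fold change was 0.14, and 0.16 (SE 0.15, adjusted p = 0.575) without the 4 libraries. The lowest p53ΔIEC value was that of CBPAAp53ΔIEC replicate 3, without which the CBPAA fold change was 0.34 (SE 0.14, adjusted p = 0.219). The difference between the p53 effects in CBPAA and CBPWT crypts (the interaction) was -0.80 (SE 0.25, adjusted p = 0.482), which did not pass. The rise in CBPWT crypts did not pass without CBPWTp53-floxed replicate 1 (adjusted p = 0.0958), 2 (0.125) or 3 (0.154) or without CBPWTp53ΔIEC replicate 2 (0.078) or 3 (0.101), and the averaged rise passed without 2 of the 12 libraries in turn, CBPWTp53ΔIEC replicate 1 and CBPAAp53ΔIEC replicate 3, at 0.46 to 0.64 over all 12. Nox1, the NADPH oxidase of the colon, had 1.25 (SE 0.47, adjusted p = 0.167) in CBPWT crypts. It was at 11.1, 12.1 and 12.8 TPM in CBPWTp53-floxed and 10.6, 42.1 and 34.4 TPM in CBPWTp53ΔIEC mice. The 10.6 TPM came from replicate 1, a library with small intestine genes. The median over the 11 genes in CBPWTp53ΔIEC vs. CBPWTp53-floxed was 0.29 against 0.01 over all genes tested. Duox1, Duoxa1, Nos1, Nos3 and Cybb were among the genes not tested, with 8 reads or fewer in any library.

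Of 18 acute phase and chemokine genes, 7 were tested and none passed, with a median of -0.22 in CBPWTp53ΔIEC vs. CBPWTp53-floxed against 0.01. The complement factor gene Cfb had -0.60 (SE 0.24, adjusted p = 0.171) and Il18 -0.27 (SE 0.16, adjusted p = 0.352) there. In CBPAAp53-floxed vs. CBPWTp53-floxed the chemokine gene Ccl20 had 1.18 (SE 0.43, adjusted p = 0.618). Of 8 genes of IgA transport and IgA cells, 4 were tested and none passed; Igha, the IgA heavy chain, had 1.37 (SE 0.41, adjusted p = 0.0834) in CBPWTp53ΔIEC vs. CBPWTp53-floxed, at 0.674 to 4.46 TPM over all libraries, and passed there with DESeq2 (1.36, SE 0.45, adjusted p = 0.0353) and without the 4 libraries (1.33, SE 0.39, adjusted p = 0.0246). Of 40 receptors and signalling genes upstream, 37 were tested and only the deleted Trp53 passed, at -2.64 (SE 0.22, adjusted p = 0.000375) in CBPWT and -2.58 (SE 0.22, adjusted p = 0.000401) in CBPAA crypts. In the CBPWT comparison 10 were above 0 and 27 below, with a median of -0.09 against 0.01, and Il17re, a subunit of the IL-17C receptor, had -0.42 (SE 0.12, adjusted p = 0.073). Tlr5, the flagellin receptor, had -0.73 (SE 0.19, adjusted p = 0.618) in CBPAAp53-floxed vs. CBPWTp53-floxed.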

How the data were processed

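RNA-seq of 12 colonic crypt libraries, 3 mice in each of 4 groups set by the labels, was analysed. The authors deposited raw read counts per gene, without normalization, and TPM scaled to gene length and library size. The submitters' processing notes list fastp 0.20.0, FastQC 0.11.9, HISAT2 2.1.0, SAMtools 1.9, featureCounts (Subread 2.0.1) and GRCm38, and the strand setting is not given in the sources used here. Further columns with fold changes and p-values, which hold comparisons made by the authors, were not used. The quasi-likelihood test of edgeR 4.0.16 (R 4.3.3) was run on the counts in 1 robust fit of all 4 groups, after TMM scaling and removal of low genes by filterByExpr at 10 counts, with Benjamini-Hochberg adjustment, and was tested on simulated data, and SEs were derived from the F statistic. TPM served for levels and log2 CPM for spread and correlations. P-values rest on the spread between the 3 mice within each group, pooled over all 4 groups and moderated across genes. The libraries held 11177430 to 18029125 reads.

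The genes and lists were chosen with earlier results of these data known, so that counts over them are descriptions. Genes named were the 10 of the set, list genes that passed the test or had the 2 smallest p-values, and the 3 most alike genes. Alternatives were DESeq2 1.42.0, other scalings, no filter or 10 reads in every library, a replicate block and leaving out each library. The fit without the 4 libraries above 500 summed TPM of small intestine genes, and the covariate, were chosen after seeing the data. Figures used matplotlib 3.10.9 in Python 3.11.15.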

Additional observations from a re-analysis of the deposited data

How the results depend on the processing

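The replicate numbers did not pair the libraries: the deviations of same-numbered libraries of 2 groups correlated with r between -0.526 and 0.548, over 0.1 in 3 of 18 pairs, and no library was most like its own number in every other group. With the replicate block the counts of genes of the set that passed were 0 in CBPWTp53ΔIEC vs. CBPWTp53-floxed (Saa1 -1.25, adjusted p = 0.0606) and 1 averaged over both genotypes (Saa1 -1.12, adjusted p = 0.0294). Gpx2 did not pass with the block (adjusted p = 0.0565 and 0.0552). The counts over all genes with the block were 32, 2 and 304 for p53 deletion in CBPWT, in CBPAA and averaged, and 0 for the CBP comparison without p53 and the interaction, and the block turned the sign of the CBP effect without p53 for Reg3b (0.17), Reg3g (0.43) and Nos2 (0.30) and of the averaged p53 effect for Saa3 (-0.02).

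For all genes, DESeq2 called 858 for p53 deletion in CBPWT (460 by edgeR), 73 in CBPAA (4), 34 for the CBP comparison with p53 (0), 30 for the interaction (1) and 5 for the average of both CBP comparisons (1), and 1 of the set, Saa1, in CBPAA. Library totals gave 136 and 0 for p53 deletion in CBPWT and the CBP comparison without p53, and turned Pigr in the interaction (0.05) and Lypd8 in CBPAA (0.06) and without p53 (0.00). No filter gave 3, 11 and 2 for the CBP comparison with p53, p53 deletion in CBPAA and the interaction, and 0 of the set in CBPWT.

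Without the 4 libraries, 42, 1729, 1053, 8, 35 and 1692 genes passed for CBP with p53, p53 deletion in CBPWT, in CBPAA, CBP without p53, the interaction and averaged p53 deletion, and of the set 1, 2, 2 and 3 for CBP with p53 and p53 deletion in CBPWT, CBPAA and averaged. With the covariate 3, 1166, 1393, 9 and 1429 genes passed for CBP with p53, p53 deletion in CBPWT, CBPAA, the interaction and averaged, and 1 of the set in CBPAA. Signs turned without the 4 libraries and with the covariate for p53 deletion in CBPWT (Reg3b -0.46 and -0.01, Nos2 -0.82 and -0.38, Saa3 -0.36 and -0.17, Lypd8 -0.03 and -0.02), in CBPAA (Reg3b -0.48 and -0.71, Reg3g -0.29 and -0.65, Nos2 -0.68 and -1.03) and averaged (Reg3b -0.47 and -0.36, Reg3g -0.06 and -0.04, Nos2 -0.75 and -0.70, Duoxa2 -0.48 and -0.35, Saa3 -0.74 and -0.48, Lypd8 -0.05 and -0.06). They turned without the 4 for CBP without p53 (Reg3b 0.76, Reg3g 0.82, Nos2 0.91, and 0.08 with the covariate), the interaction (Nos2 0.14, Saa1 -0.04) and averaged CBP (Duoxa2 0.06, Lypd8 -0.01, and -0.02 with the covariate). The cause was not tested.

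Leaving out 1 library at a time, the count of all genes ranged from 1 to 906 in CBPWT, 1 to 326 in CBPAA, 105 to 1073 averaged, 0 to 2 for CBP with p53, 0 to 1 for CBP without p53 and the interaction, and of the set 0 to 1 in CBPWT and in CBPAA. Signs turned within these ranges: for p53 deletion in CBPWT, Reg3b -0.46 to 3.01, Nos2 -0.82 to 3.85, Saa3 -0.36 to 0.77 and Lypd8 -0.03 to 0.14; in CBPAA, Nos2 -0.30 to 1.89, Lypd8 -0.07 to 0.04, Gpx2 -0.03 to 0.34 and Igha -0.04 to 0.57; averaged, Nos2 -0.12 to 2.57, Duoxa2 -0.30 to 0.29, Saa3 -0.33 to 0.24 and Lypd8 -0.02 to 0.07. For CBP with p53 they were Saa1 -0.16 to 0.25, Pigr -0.04 to 0.24 and Lypd8 -0.03 to 0.12; without p53, Reg3b -1.32 to 1.84, Reg3g -1.58 to 2.38, Nos2 -1.48 to 3.48, Pigr -0.04 to 0.10 and Lypd8 -0.09 to 0.08. For the interaction they were Reg3b -2.53 to 0.95, Reg3g -3.65 to 0.69, Nos2 -3.56 to 1.40, Duox2 -0.35 to 0.10, Saa1 -0.11 to 0.45, Saa3 -1.07 to 0.07, Pigr -0.19 to 0.08 and Lypd8 -0.16 to 0.02; averaged over both p53 states, Reg3b -0.21 to 1.37, Duoxa2 -0.44 to 0.15 and Lypd8 -0.03 to 0.07. With 3 mice a group and SEs of 1.10 to 1.73 for Reg3b, Reg3g and Nos2 in the 4 pairwise comparisons, smaller differences of these genes could not be told from the spread between mice.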
